A study of Triticum aestivum with 4 samples.

Results

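The genes examined here build, stiffen and loosen the plant cell wall. They were chosen by the descriptions in the authors' lists of wheat regions that differed in DNA methylation: a description that began with peroxidase, or that contained laccase, dirigent, CASP-like, pectin, polygalacturonase, xyloglucan, expansin, cellulose synthase, extensin, fasciclin, arabinogalactan, glucan endo or xylanase. This gave 40 of 3119 listed regions, which belonged to 38 of 2811 genes. Only 468 of the 3119 regions carried a description, so the wall regions could come only from these. Of the 40, 14 were assigned to peroxidase genes, 7 to dirigent proteins, 6 to pectin enzymes, 5 to CASP-like proteins, 3 to xyloglucan enzymes, 2 to laccases, 2 to expansins and 1 to a cellulose synthase. The words polygalacturonase, extensin, fasciclin, arabinogalactan and xylanase matched no listed region, and glucan endo matched only the 3 regions of the xyloglucan enzymes. The rule itself uses descriptions and no measured value, but it was set with earlier results of these data known, and every region had already passed the authors' own selection for a difference between the libraries. Nothing can be said here of genes that are not listed.

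Seeds of the winter wheat breeding line SE15, with 13.6% water, were treated with ultrasound at 30 kHz and 70 W for 5 min at 4 cm from the ultrasound head, or were left untreated, with 100 seeds in each group. All seeds then germinated at 20 °C in darkness, and whole seedlings were taken after 7 days, so that different organs and cell types are mixed in each DNA sample. The methylation levels come from 1 ultrasound library, number 1 of 2 in the labels, and 1 control library, taken as number 1 of 2; the design text speaks of 3 biological samples per group. The labels give no key to the heading of the control column, which was read as the control because the other column carries the letters of the ultrasound group. With 1 library per group there was no replicate check and no test between the groups, and "lower" and "higher" describe the ultrasound library relative to the control library. How many reads stand behind each level is unknown.

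In the wall of a growing plant cell, cellulose microfibrils lie in a matrix of hemicelluloses and pectin. Grass walls hold less xyloglucan and pectin than those of most other flowering plants. Enzymes and expansins loosen this network during growth, and lignin, made by oxidative coupling of monolignols, later stiffens it. Plants methylate cytosine in 3 sequence contexts, CpG, CHG and CHH, where H is A, C or T. In Arabidopsis, CpG methylation is copied at replication by MET1, CHG methylation is kept by CMT3, and CHH methylation depends on CMT2 and on DRM2 guided by small RNAs. Methylation near a gene can go with lower or higher transcript levels, and no transcript levels were analysed here.

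Levels in both libraries were given for 34 of the 40 regions. Of these 34, 22 were lower and 12 higher in the ultrasound library, a share of 64.7% lower (95% exact binomial interval 46.5 to 80.3, for counting error over regions only). Among all listed regions with both levels, 76.8% of 2705 were lower, a value inside that interval. Among the 404 of these with a description, 76.0% were lower. The median of ultrasound minus control over the 34 regions was -7.44 percentage points, against -10.1 points over all listed regions. The wall genes thus went both ways, and in the lists as a whole decreases were the more frequent direction as well.

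The 3 contexts differed in how the wall genes were split. In CpG, 4 of 8 regions were lower, where 71.7% of the 480 CpG regions in the list were lower. In CHG, 12 of 20 were lower, where the list had 78.2% lower. In CHH, all 6 were lower, where the list had 77.1% lower. Among described regions with both levels, 62.5% of 64 were lower in CpG, 80.7% of 233 in CHG and 73.8% of 107 in CHH. The CpG share of the wall genes lay nearer that of described regions, and the CHG and CHH shares nearer those of the full list. The 8 wall regions in CpG are themselves among the 64. Their share of 50% (95% exact binomial interval 15.7 to 84.3) does not tell the 2 CpG shares apart. The CpG median of -0.43 points fell between 2 separate sets of regions, 4 at -13.2 points or below and 4 at 12.4 points or above, and describes no region, while all listed CpG regions had a median of -18.3 points. The CHG median was -4.82 points, against -8.87 points for all listed CHG regions, and the CHH median was -16.5 points, against -11.2 points. Each of these counts is small, and none of the differences from the full lists was tested.

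**Figure D1:**
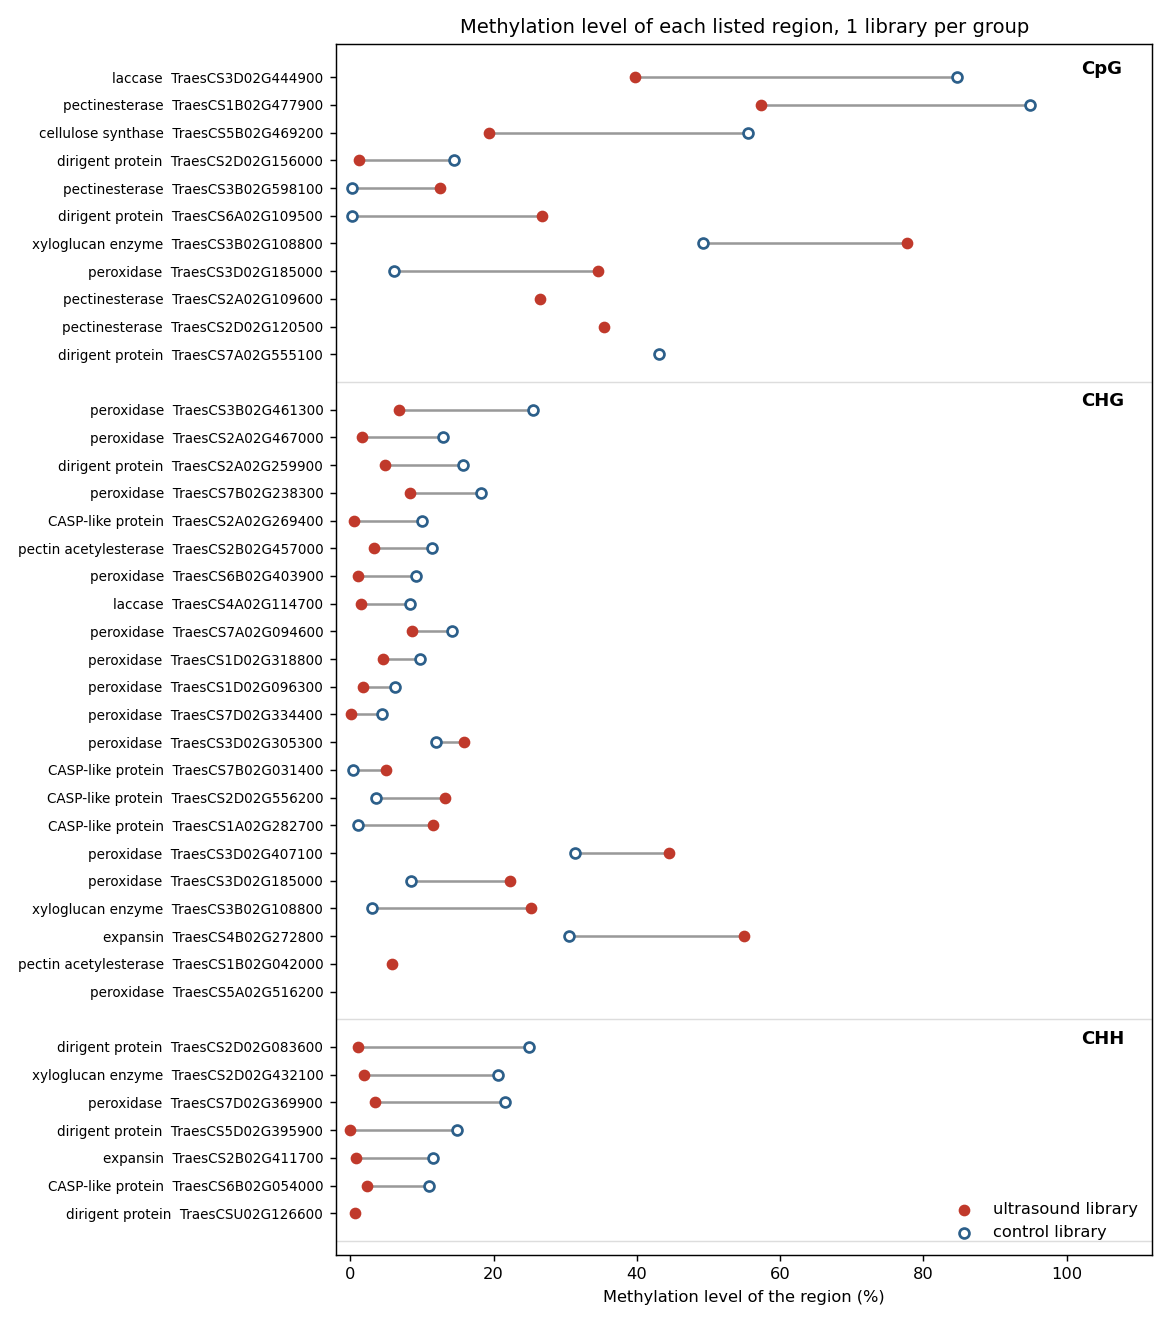
Methylation level (%) of each of the 40 regions in the ultrasound library (filled red points) and the control library (open blue points), by context, with a line between the levels where both were given; within a context, regions run from the largest decrease to the largest increase and those lacking a level come last. The 6 CHH regions with both levels lie at 0 to 3.48% in the ultrasound library and at 11.02 to 25% in the control library.

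Peroxidases formed the largest family. Secretory plant peroxidases use hydrogen peroxide to oxidise monolignols and wall phenolics, although the descriptions do not say to which class these genes belong. Of the 13 peroxidase genes, 12 had both levels in at least 1 context, and 9 of the 12 genes were lower in every listed region while 3 were higher. By region, 9 of 13 were lower, or 69.2%, near the 76.8% over all listed regions, so the count alone does not set the family apart. The 9 lower genes lay on 7 chromosomes other than 3D, and the 3 higher genes all lay on 3D. This division was noticed after the values were seen. Position differed as well, so chromosome and position overlap here. The higher regions lay upstream, apart from that of TraesCS3D02G407100, which overlapped the gene. The lower regions overlapped their genes, apart from that of TraesCS2A02G467000, which lay downstream.

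The peroxidase with the largest CHG decrease was TraesCS3B02G461300, with 6.85% in the ultrasound library and 25.5% in the control library in a region that overlapped the gene (3B, 704406858 to 704408695). TraesCS2A02G467000 followed, with 1.65% in the ultrasound library and 12.9% in the control library in a region 2675 bp downstream (2A, 711513059 to 711514098). TraesCS7B02G238300 had 8.39% in the ultrasound library and 18.3% in the control library in a region that overlapped the gene. That region, at -9.89 points, differed by less than 10 points, as did the other 5 lower CHG peroxidase regions. Those 5 also overlapped their genes. TraesCS6B02G403900 had 1.11% in the ultrasound library and 9.19% in the control library. TraesCS7A02G094600 had 8.62% in the ultrasound library and 14.2% in the control library, and TraesCS1D02G318800 had 4.52% in the ultrasound library and 9.74% in the control library. These 5 loci had CHG levels of at most 14.2% in either library.

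The smallest decreases of all the wall genes were also peroxidases. TraesCS7D02G334400 had 0.0752% in the ultrasound library and 4.41% in the control library, and TraesCS1D02G096300 had 1.83% in the ultrasound library and 6.24% in the control library. The only CHH region of a peroxidase overlapped TraesCS7D02G369900, with 3.48% in the ultrasound library and 21.6% in the control library (7D, 478571020 to 478571422). A further peroxidase gene, TraesCS5A02G516200, was listed in CHG with no level in either library.

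The higher peroxidases were led by TraesCS3D02G185000, listed upstream of the gene in both symmetric contexts. In CpG the level was 34.6% in the ultrasound library and 6.10% in the control library (3D, 170560695 to 170562184, 1201 bp from the gene). In CHG it was 22.2% in the ultrasound library and 8.42% in the control library (3D, 170560347 to 170562209, 1176 bp from the gene). The CpG region, 1490 bp long, lay wholly inside the CHG region of 1863 bp, so both readings describe 1 locus in the same pair of libraries. TraesCS3D02G407100 had a CHG level of 44.5% in the ultrasound library and 31.4% in the control library across the gene (3D, 520682443 to 520683717). The smallest difference of any wall gene was that of TraesCS3D02G305300, 877 bp upstream, with 15.9% in the ultrasound library and 12.0% in the control library (3D, 419466196 to 419467266).

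The 3 higher peroxidase loci were far apart on chromosome 3D, with 249 Mb between the first and the second and 101 Mb between the second and the third. Among all listed regions on 3D, 77.8% of 144 were lower, close to the 76.7% of 2561 on the other chromosomes. The 3D chromosome as a whole therefore showed the direction of the full lists, and the 4 peroxidase regions on it the opposite one. A laccase gene on 3D, described next, was lower.

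Laccases oxidise monolignols with molecular oxygen. TraesCS3D02G444900 had the largest difference of any wall gene, with a CpG level of 39.7% in the ultrasound library and 84.6% in the control library in a region of 429 bp that overlapped the gene (3D, 554217508 to 554217936). The other laccase, TraesCS4A02G114700, was lower in CHG 312 bp upstream, with 1.52% in the ultrasound library and 8.31% in the control library. Both laccases were lower, as were 76.8% of all listed regions, but they differed in context, position and control level.

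Dirigent proteins steer the coupling of phenoxy radicals in the formation of lignans and, in Arabidopsis, take part in placing lignin at the Casparian strip of the root. Of 7 listed dirigent genes, 5 had both levels, and 4 of the 5 were lower, where 76.8% of all listed regions were lower. TraesCS2D02G083600 had the largest CHH decrease of the wall genes, with 1.00% in the ultrasound library and 25% in the control library across the gene (2D, 36113174 to 36113480). TraesCS5D02G395900 was listed at 0% in the ultrasound library and had 15.0% in the control library in CHH, 793 bp downstream. In CpG, TraesCS2D02G156000 had 1.21% in the ultrasound library and 14.4% in the control library, and in CHG, TraesCS2A02G259900 had 4.89% in the ultrasound library and 15.8% in the control library, both in regions across the gene. The 4 lower dirigent loci lay under 5% in the ultrasound library in 3 different contexts. Lower listed regions as a whole had ultrasound medians of 24.5% in CpG, 10.7% in CHG and 0.638% in CHH. The CpG and CHG dirigent loci lay below these medians. In CHH, TraesCS2D02G083600 lay above the median and TraesCS5D02G395900 below it. None of this was tested.

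The fifth dirigent gene went the other way. A CpG region 629 bp upstream of TraesCS6A02G109500 had 26.7% in the ultrasound library and 0.205% in the control library (6A, 78986206 to 78987419). For TraesCS7A02G555100 the CpG region upstream was given only for the control library, at 43.1%. For TraesCSU02G126600, on unplaced sequence, the CHH region was given only for the ultrasound library, at 0.694%.

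CASP-like proteins are relatives of the CASP proteins, which in Arabidopsis form the membrane scaffold on which the Casparian strip is laid down. All 5 listed regions had both levels, and 3 were higher and 2 lower, where 76.8% of all listed regions were lower. In CHG, TraesCS1A02G282700 had 11.5% in the ultrasound library and 1.02% in the control library across the gene (1A, 480745757 to 480746645). A region 2556 bp downstream of TraesCS2D02G556200 had 13.2% in the ultrasound library and 3.53% in the control library, and a region 363 bp upstream of TraesCS7B02G031400 had 5.00% in the ultrasound library and 0.333% in the control library. The 3 higher genes were thus under 5% in the control library. In CHG, the 339 higher listed regions had a control median of 10.1%, against 23.9% for the 1218 lower ones. The 3 higher CASP-like genes lay below both medians, which was not tested. The CHG region across TraesCS2A02G269400 was lower, at 0.490% in the ultrasound library and 9.95% in the control library, as was the CHH region downstream of TraesCS6B02G054000, at 2.27% in the ultrasound library and 11.02% in the control library.

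Pectinesterases take methyl groups off pectin, which alters how stiff the pectin gel is, and pectin acetylesterases take off acetyl groups. A CpG region 2191 bp upstream of the pectinesterase gene TraesCS1B02G477900 had 57.3% in the ultrasound library and 94.8% in the control library (1B, 686679697 to 686680074), the highest control level of any wall gene. The gene TraesCS3B02G598100, described as probable pectinesterase 67 by projection from Arabidopsis, had 12.6% in the ultrasound library and 0.203% in the control library in CpG across the gene (3B, 819956507 to 819957219). The nearest other listed region, of the undescribed gene TraesCS3B02G598000, lay 7993 bp away and differed in the opposite direction, listed at 0% in the ultrasound library and with 28.1% in the control library. The pectin acetylesterase gene TraesCS2B02G457000 was lower in CHG, with 3.29% in the ultrasound library and 11.5% in the control library.

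The other 3 pectin enzyme regions had a level in the ultrasound library only. The pectinesterase genes TraesCS2A02G109600 and TraesCS2D02G120500 had CpG levels of 26.5% and 35.4% there, and the pectin acetylesterase gene TraesCS1B02G042000 a CHG level of 5.78%. No direction can be given for them.

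Xyloglucan endotransglucosylase/hydrolases cut and rejoin xyloglucan chains as the wall expands. TraesCS3B02G108800 was higher upstream in both symmetric contexts. In CpG it had 77.7% in the ultrasound library and 49.3% in the control library (3B, 74819827 to 74820361), and in CHG 25.3% in the ultrasound library and 3.06% in the control library (3B, 74819501 to 74820583). The CpG region of 535 bp lay wholly inside the CHG region of 1083 bp, which makes this, like the peroxidase TraesCS3D02G185000, 1 locus read in 2 contexts. These were the only 2 wall genes listed in more than 1 context. The second xyloglucan gene, TraesCS2D02G432100, was lower in CHH in a region 1327 bp upstream, with 1.86% in the ultrasound library and 20.6% in the control library (2D, 544585389 to 544585660).

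Expansins loosen walls without cutting their polymers. A CHG region 2014 bp downstream of the expansin gene TraesCS4B02G272800 had 54.9% in the ultrasound library and 30.6% in the control library (4B, 550498425 to 550500702), the largest CHG increase of the wall genes and the 74th largest of 1557 CHG differences by increase. A CHH region downstream of the expansin gene TraesCS2B02G411700 had 0.757% in the ultrasound library and 11.5% in the control library. Cellulose synthase makes the glucan chains of the microfibrils, and the listed gene TraesCS5B02G469200 had a CpG level of 19.3% in the ultrasound library and 55.5% in the control library across the gene (5B, 642836963 to 642837875). The 2 expansins thus differed in opposite directions, in different contexts.

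**Figure D2:**
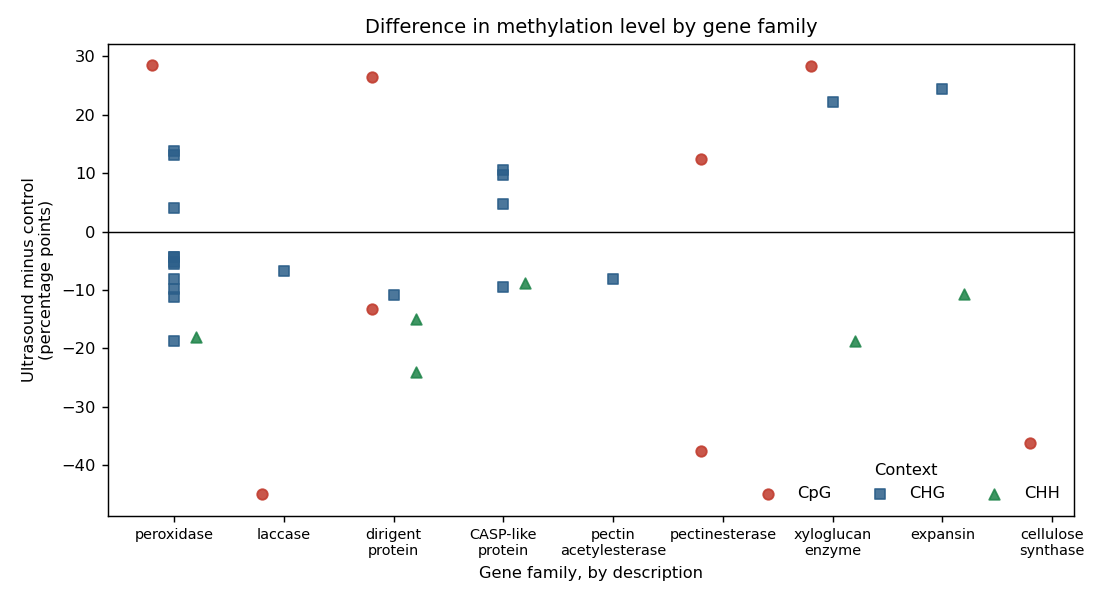
Difference in methylation level (ultrasound minus control, percentage points) of the 34 regions with both levels, by gene family, with circles for CpG, squares for CHG and triangles for CHH; the horizontal line marks no difference. Peroxidases, dirigent proteins, CASP-like proteins, pectinesterases, xyloglucan enzymes and expansins have points on both sides of 0.

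Among the wall genes, the split of directions was not the same at each position relative to the gene. Of 18 regions that overlapped the gene, 15 were lower, where 79.5% of all listed overlapping regions were lower. Of 10 upstream regions, 3 were lower, a share of 30% (95% exact binomial interval 6.67 to 65.2), where the share over all listed upstream regions was 74.5%. Among described upstream regions, 70.5% of 95 were lower, with 50% in CpG and 78.7% in CHG. Of 6 downstream regions, 4 were lower, against 73.8% in the lists. The 7 higher upstream regions belonged to 5 genes, the peroxidases TraesCS3D02G185000 and TraesCS3D02G305300, the xyloglucan gene TraesCS3B02G108800, the dirigent gene TraesCS6A02G109500 and the CASP-like gene TraesCS7B02G031400. With each gene counted once, 3 of 8 genes were lower upstream, a share of 37.5% (95% exact binomial interval 8.52 to 75.5). Counted in the same way, 74% of all listed genes were lower upstream. That value lies inside the interval by gene, whereas 74.5% lies outside the interval by region. These intervals cover counting error over regions or genes only and are no test. The upstream peroxidases that were higher lay on 3D, so the upstream and 3D patterns share regions. The comparison of positions was chosen after the values were seen and was not tested, and position and context overlap: upstream, 3 of 4 CpG and 4 of 5 CHG regions were higher, and the only CHH region was lower.

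**Figure D3:**
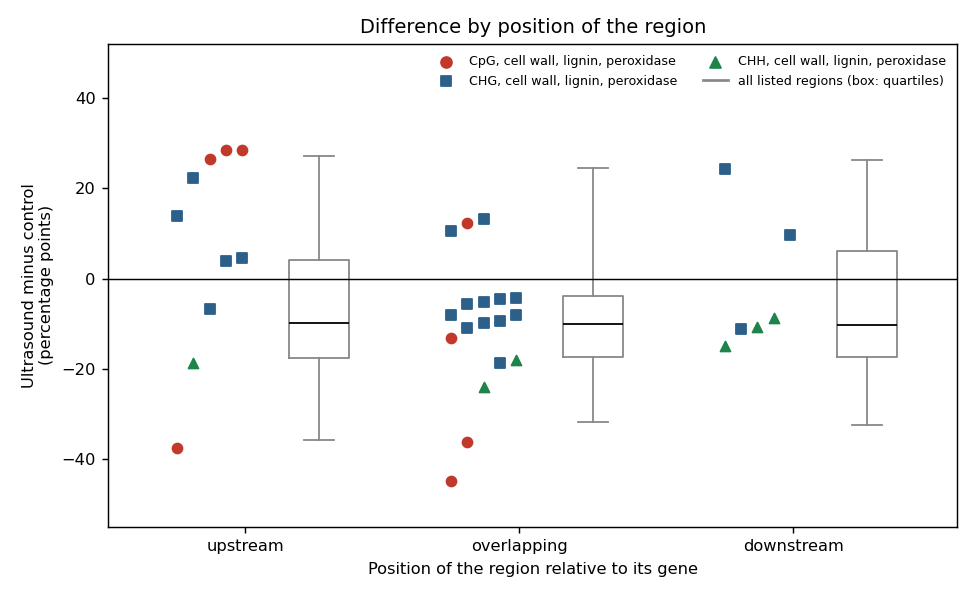
Difference in methylation level (ultrasound minus control, percentage points) by position of the region, for the wall genes (points, by context) and for all listed regions (boxes with quartiles and median; whiskers from the 5th to the 95th percentile). Upstream, 7 of the 10 points lie above 0, and of the points that overlap a gene 15 of 18 lie below it.

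Levels close to 0 were common among the wall genes. In the ultrasound library 17 of 34 regions were under 5%, where the share over all listed regions was 35.5%, and in the control library 7 of 34 were under 5%, where it was 13.6%. In CHG, the 12 lower wall regions had a median of 2.56% in the ultrasound library and 10.7% in the control library. All 1218 lower CHG regions of the list had medians of 10.7% in the ultrasound library and 23.9% in the control library, so the lower wall regions had the smaller medians in both libraries. In CHG 8 of 20 wall regions differed by at least 10 points, against 60.4% of all listed CHG regions. In CpG all 8 differed by at least 10 points, against 91% of the list.

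Of the wall regions, 6 of 8 in CpG, 0 of 20 in CHG and 0 of 6 in CHH differed by at least 25 points. Over all listed regions, 9.76% in CHG and 12% in CHH differed by that much; with 20 and 6 wall regions, the absence of such a difference in CHG and CHH was not tested. The 6 CpG regions were lower for the laccase TraesCS3D02G444900, the pectinesterase TraesCS1B02G477900 and the cellulose synthase TraesCS5B02G469200, and higher for the peroxidase TraesCS3D02G185000, the xyloglucan gene TraesCS3B02G108800 and the dirigent gene TraesCS6A02G109500. Among all listed CpG regions, 32.7% were lower and 15.6% higher by that much. The laccase ranked 23rd among the 480 CpG differences ordered from the largest decrease, and the peroxidase 60th from the largest increase, so neither was at the extreme of its list.

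**Figure D4:**
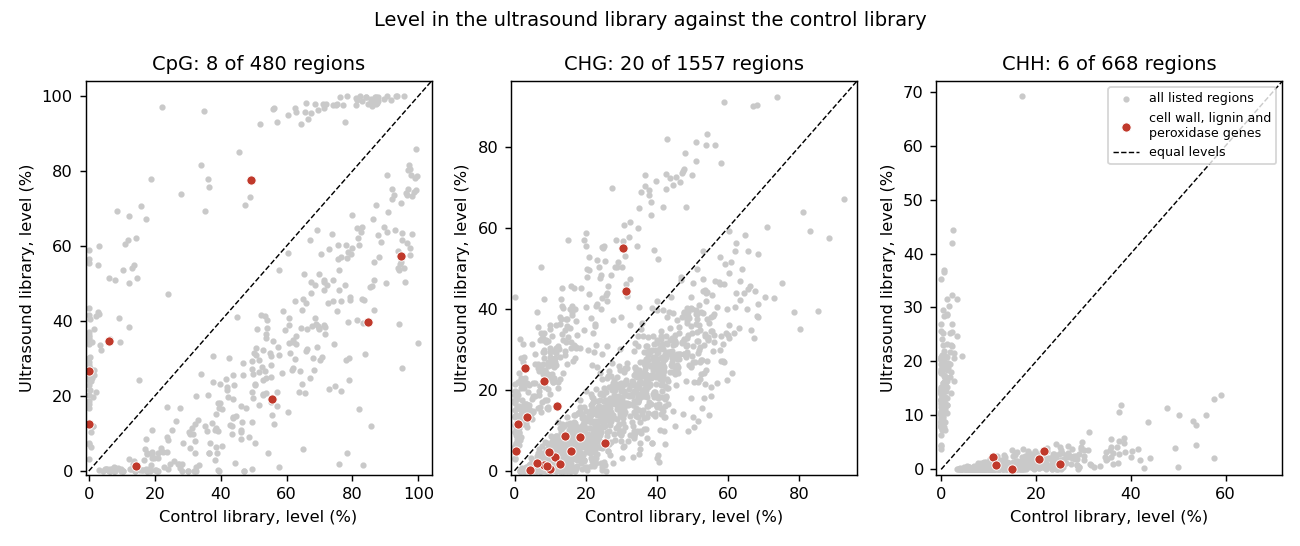
Level in the ultrasound library (vertical axis, %) against the control library (horizontal axis, %) in CpG, CHG and CHH for the wall genes (red) and all listed regions (grey); the dashed line marks equal levels. The CHG points of the wall genes lie mostly in the lower left corner, at control levels of 0.333 to 31.4%.

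The regions were spread over the genome. They lay on 18 chromosomes and on unplaced sequence, with at most 5 on any chromosome. In the A subgenome 5 of 7 regions with both levels were lower, in B 8 of 13 and in D 9 of 14, where the shares over all listed regions were 78.1% in A, 74.8% in B and 78.1% in D. None of these differences was tested. Apart from the loci read in CpG and CHG together, the pectinesterase TraesCS3B02G598100 was the only wall gene with another listed region within 10 kb of its own. Region length followed context, with a median of 307 bp in CHH, 913 bp in CpG and 1564.5 bp in CHG for the wall genes.

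Further genes of the same pathways were sought with words for lignin enzymes, other wall genes and other oxygen enzymes. Phenylalanine ammonia-lyase, the entry enzyme of the phenylpropanoid pathway, was listed in CpG upstream of TraesCS2D02G377200, with 8.49% in the ultrasound library and 17.2% in the control library. 4-coumarate:CoA ligase, which activates the acids from which monolignols are made, was listed in CHG at TraesCS2A02G145800, with 3.91% in the ultrasound library and 8.40% in the control library. These were the only matches to 11 words for lignin and phenylpropanoid enzymes. Words for other wall genes matched 29 regions, of which 24 had both levels and 20 of the 24 were lower, with a median of -11.2 points. That share of 83.3% (95% exact binomial interval 62.6 to 95.3) and median lay near those of all listed regions, at 76.8% and -10.1 points. Of the 24, 18 were hexosyl- or glycosyltransferases, families that also act outside the wall, with 15 lower. The largest difference of the 24 was an increase, in CpG downstream of the glycosyltransferase gene TraesCS1A02G196100. It had 60.1% in the ultrasound library and 3.21% in the control library. Of the other 6, 5 were lower. The exception was upstream of the formin-like gene TraesCS2B02G209600, with a CpG level of 98.6% in the ultrasound library and 87.3% in the control library.

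Among those 5, a COBRA-like gene (TraesCS2D02G386400), of a family that takes part in cellulose deposition, was lower in both symmetric contexts: in CpG it had 0.410% in the ultrasound library and 39.2% in the control library, and in CHG it was listed at 0% in the ultrasound library with 9.25% in the control library. Both listed endoglucanase genes were lower in CHG, with 4.02% in the ultrasound library and 9.96% in the control library at TraesCS1D02G397400, and 2.65% in the ultrasound library and 14.5% in the control library at TraesCS7A02G144700. Words for other enzymes of peroxide and oxygen matched 4 regions, of which 3 had both levels and 2 of the 3 were lower: a polyphenol oxidase (TraesCS2A02G468200), listed at 0% in the ultrasound library and with 6.18% in the control library in CHG, and a glutathione peroxidase (TraesCS4A02G142000), with 0.267% in the ultrasound library and 8.30% in the control library in CHH. The third, ascorbate peroxidase 4 (TraesCS2D02G434500), was higher in CHG, with 55.5% in the ultrasound library and 25.2% in the control library. Over all listed regions 76.8% were lower, so these small counts do not set these genes apart.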

How the data were processed

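Genomic DNA of wheat seedlings was converted with an enzymatic methyl-seq kit, per the labels' protocols, whereas the library titles name whole-genome bisulfite sequencing. The authors' tools were Bismark 0.23.1, Trim Galore 0.6.7, FastQC 0.11.9 and edgeR, per the submitters' processing notes, which state no roles. Build, alignment settings and region definition were each not given in the sources used here. As deposited, 3 lists (CpG, CHG, CHH) hold selected regions with a methylation level in percent per library and the assigned gene, per the file headers. The authors' headings name a chi-square and an edgeR selection, which can favour large or well covered differences, so counts describe listed regions and not the genome.

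A difference is the ultrasound level less the control level, in percentage points. Regions lacking a level in either library entered no direction or median (6 of 40 here, 414 of 3119 in all). With 1 library per group no test was run. Shares have exact Clopper-Pearson intervals and medians order-statistic intervals, at 95%, which cover counting error over regions only; without read depth no interval of a level could be given. The members and word lists were chosen with earlier results of these data known. The naming rule took genes listed in more than 1 context, the 4 largest absolute differences per role and the 3 smallest; the remaining members were added so that each is accounted for. The word formin also matched UDP-forming in a trehalose-phosphate synthase, which had no control level. None of the 38 gene identifiers matched the reference gene table, and no sequence is printed. Python 3.11.15, pandas 2.3.3, SciPy 1.17.1 and Matplotlib 3.10.9 were used, and the summary functions were tested on simulated data.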

Additional observations from a re-analysis of the deposited data

How the results depend on the processing

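The share of wall gene regions that were lower, 64.7%, was 57.1% with a minimum difference of 10 points, 50% with 25 points, 68.8% with each gene counted once, 61.9% without the peroxidases and 63.9% with every description that contains peroxidase, all within the interval of the main share. With regions that overlap the gene only it was 83.3% over all contexts and 83.3% in CHG, where the main CHG share was 60%. Among all listed overlapping regions the shares were 79.5% over all contexts and 80.6% in CHG. In CHG the share of wall regions was 37.5% among the 8 that differed by at least 10 points and 44.4% without the peroxidases. In CpG it was 50% to 75%, and in CHH 100% under each alternative run. Of all listed regions that differed by at least 10 points, 1365 of 1868 were lower, and in CHG 682 of 941. At 25 points, 305 listed regions were lower and 159 higher. The upstream share of 30% was 37.5% with each gene counted once, an alternative chosen after seeing the data. The median difference of -7.44 points ranged from -10.9 to -4.84 points over the alternatives that kept the median, and its interval, -10.9 to 4.67, includes 0. The mean in place of the median was -3.88 points. A description filter on domain or family names removed no region. On a log2 ratio of levels plus 1 point, each of the 34 differences had the same sign, which follows from the scale. No CHG or CHH region of a wall gene differed by 25 points, so that alternative gives no share there. No paired analysis was possible because levels of only 1 library per group were analysed here, and for the same reason no replicate could be left out. Without read depth, differences of a few points at levels under 5%, as in several peroxidase and CASP-like genes, cannot be weighed against counting error.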
